A study of Mus musculus with 6 samples.

Results

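Trp53, the gene of the transcription factor p53, and 9 genes known as its direct targets were followed in 6 RNA sequencing libraries of mouse macrophages grown from bone marrow, 3 treated with vehicle (control) and 3 treated with piceatannol. The 10 genes were chosen by symbol (Trp53, Mdm2, Mdm4, Plk2, Cdkn1a, Ccng1, Trp53inp1, Phlda3, Btg2 and Zmat3), and each of them was found among the 52459 gene symbols of the deposited table. Each of the 10 passed the filter on low counts, which left 15380 genes for testing. The cells came from C57BL/6 mice and grew in medium with GM-CSF, a growth factor for myeloid cells, and both groups shared that strain, medium and factor. On day 7 of culture the treated group received piceatannol, a plant stilbene known to inhibit the kinase Syk, and the control group received vehicle, both overnight. The sources used here do not give the dose, the vehicle, or the age and number of the mice. Whether a group's libraries came from different mice or dishes is not stated, so the p-values speak only for the spread between these libraries, which may be technical.

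The protein p53 is held low in unstressed cells because Mdm2, itself the product of a p53 target gene, marks it for degradation, and Mdm4 binds its transactivation domain. Damage to DNA, loss of ribosomal balance and other stresses free p53, which then binds paired recognition units in the genome and raises genes for cell cycle arrest, repair, metabolism and death. Because p53 is controlled mostly as a protein, the messenger RNA of its targets is the usual readout of its activity, although many of these genes also respond to other transcription factors.

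The targets did not move together. With piceatannol, Plk2 rose 15.1-fold, Mdm2 5.99-fold, Trp53inp1 2.33-fold and Phlda3 1.18-fold, while Ccng1 fell 1.72-fold, Zmat3 1.26-fold, Trp53 1.17-fold and Btg2 1.10-fold. Cdkn1a, the p21 gene and the classical readout of p53, and Mdm4 did not pass the test. The test was the quasi-likelihood F test of edgeR, adjusted by the Benjamini-Hochberg method over all tested genes. At an adjusted p under 0.05, 4 of 10 genes were higher and 4 were lower. Among all tested genes 77% passed, 38.8% higher and 38.3% lower, so the share called among the 10 genes (80%) was near that of the transcriptome. The libraries of the groups did not overlap in CPM for 8 of the 10 genes, 4 higher and 4 lower, beside 79% of all tested genes (39.9% higher and 39.2% lower). A rise of at least 2-fold was called for 3 of the 10 and a fall of at least 2-fold for 0 (all tested genes 17.5% and 16.6%). The median log2 fold change of the 10 was 0.05, beside 0.01 over all tested genes.

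Library totals lay between 33276569 and 58697084 counts. The share of counts from mitochondrially encoded genes was 0.777% to 0.866% in control and 1.87% to 2.65% in piceatannol libraries. Of 6 macrophage markers fixed for the check, each was tested, with a summed level of 5368 to 5749 CPM with vehicle and 2326 to 2429 CPM in piceatannol libraries. Of the 6, 5 were lower and 1, Cd68, was higher (2.16-fold), and Fcgr1, encoding a receptor for immunoglobulin G, went from 226 to 22.3 CPM. None of the 6 was at 0 in any library. Markers of fibroblasts or stromal cells summed to 2182 to 2435 CPM with vehicle and 505 to 566 CPM in piceatannol libraries, with 4 of 5 lower and 0 higher, and none of the 5 was at 0. Neutrophil markers summed to 116 to 251 CPM and 22.8 to 32.9 CPM (6 of 7 tested, each of the 6 lower), and dendritic cell markers to 734 to 755 CPM and 414 to 630 CPM (6 of 7 tested, 4 lower and 1 higher). Most of the dendritic cell sum was Ccr7 (means 563 and 481 CPM), which did not pass. Cd209a went from 56.3 to 1.24 CPM and Dpp4 from 50.4 to 3.03 CPM, and Clec9a, the 1 higher, from 1.15 to 1.94 CPM. The marker sums of T or NK cells, B cells and mast cells or basophils stayed at or below 4.48 CPM in every library, and progenitor markers summed to 95.7 to 112 CPM with vehicle and 75.2 to 92 CPM in piceatannol libraries. That sum joins opposite changes, with 3 of 4 lower and 1 higher: Cd34 went from 69.3 to 0.925 CPM and Kit from 21.5 to 74.4 CPM. The part of these shifts in the results for p53 targets was not tested. In bulk RNA, fewer cells of a type and less RNA per cell cannot be told apart.

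The sequences around the start sites are shown first, since Cdkn1a and Ccng1 carry the closest matches to a p53 site and Mdm2 and Plk2 rose most. A p53 recognition unit has 10 bases (3 purines, then C, A or T, A or T, G and 3 pyrimidines), and a site is 2 such units up to 13 bases apart. The unit reads alike on both strands. Windows of 300 bases, 250 before and 50 after a RefSeq start site (GRCm38.p6), were found for 8 of the 10 genes, and none was found for Trp53inp1 and Zmat3. Capitals mark exact p53 units and sites of 2 adjoining units with up to 1 mismatch, except in Plk2, where they mark an ATF/CREB site.
Cdkn1a (upstream start site, chr17:29090729-29091028, plus strand): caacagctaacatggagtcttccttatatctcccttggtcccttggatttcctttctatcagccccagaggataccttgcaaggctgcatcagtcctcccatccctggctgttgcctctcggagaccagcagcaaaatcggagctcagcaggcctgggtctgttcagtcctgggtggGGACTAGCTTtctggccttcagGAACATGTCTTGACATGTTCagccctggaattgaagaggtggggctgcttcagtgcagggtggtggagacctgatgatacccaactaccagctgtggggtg
Ccng1 (chr11:40755237-40755536, minus strand): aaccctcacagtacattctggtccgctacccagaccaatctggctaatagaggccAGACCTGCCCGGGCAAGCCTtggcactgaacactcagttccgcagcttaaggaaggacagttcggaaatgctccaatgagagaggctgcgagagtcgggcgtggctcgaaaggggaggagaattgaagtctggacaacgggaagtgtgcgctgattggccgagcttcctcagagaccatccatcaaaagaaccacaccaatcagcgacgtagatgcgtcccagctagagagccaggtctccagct
Mdm2 (chr10:117710709-117711008, minus strand): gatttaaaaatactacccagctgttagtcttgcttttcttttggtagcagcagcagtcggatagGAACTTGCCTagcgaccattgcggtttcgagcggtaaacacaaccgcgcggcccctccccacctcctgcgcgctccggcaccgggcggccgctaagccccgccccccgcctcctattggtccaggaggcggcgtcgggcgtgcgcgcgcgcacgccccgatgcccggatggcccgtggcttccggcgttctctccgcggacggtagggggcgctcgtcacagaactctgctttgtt
Plk2 (chr13:110394794-110395093, plus strand): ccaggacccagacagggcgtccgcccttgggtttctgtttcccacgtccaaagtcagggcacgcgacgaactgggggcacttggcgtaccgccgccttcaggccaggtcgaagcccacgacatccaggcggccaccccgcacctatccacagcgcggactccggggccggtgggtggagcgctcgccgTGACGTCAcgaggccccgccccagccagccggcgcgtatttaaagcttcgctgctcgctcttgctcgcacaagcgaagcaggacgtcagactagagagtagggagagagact

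Cdkn1a and Ccng1 held a site of 2 adjoining units with 1 mismatch. That of Cdkn1a, GAACATGTCTTGACATGTTC, began 51 bases before the upstream of its 2 start sites, which lies 2790 bases before the other, and that of Ccng1, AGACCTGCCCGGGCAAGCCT, began 195 bases before the start site. Cdkn1a held a second site that shares a unit with the first, with 2 exact units 12 bases apart, beginning 73 bases before the same start site. Of all 32851 windows, 0.067% held a site of this kind and 0.627% held one with any spacing up to 13 bases. Single exact units stood in Mdm2, 186 bases before the start site, and in Trp53, 75 bases before it (8.36% of all windows held 1 or more). No unit was found in the windows of Plk2, Phlda3, Btg2 or Mdm4, which says only that these letters are not in those windows. The p53 site of Mdm2 is known to lie in its first intron, outside the window used here. Of the 2 genes with adjoining units, Cdkn1a did not pass the test with piceatannol and Ccng1 fell.

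The same windows were searched on both strands for 5 other motifs. The ATF/CREB site TGACGTCA was found in Plk2, 62 bases before the start site, and in Btg2, 166 bases before it (1.79% of all windows). The antioxidant response element TGACNNNGC was found in Trp53 and in the downstream window of Cdkn1a (12.4% of all windows). The hypoxia response core ACGTG was found in Trp53 and Plk2 (19.6%). In Plk2 it began 208 bases before the start site and shared no letters with the ATF/CREB site. The trimeric heat shock element (0.603% of all windows) and the CHOP/ATF4 composite site TGATGCAA (0.895%) were found in 0 of the 8 genes. These matches describe letters and do not show binding.

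**Figure D1:**
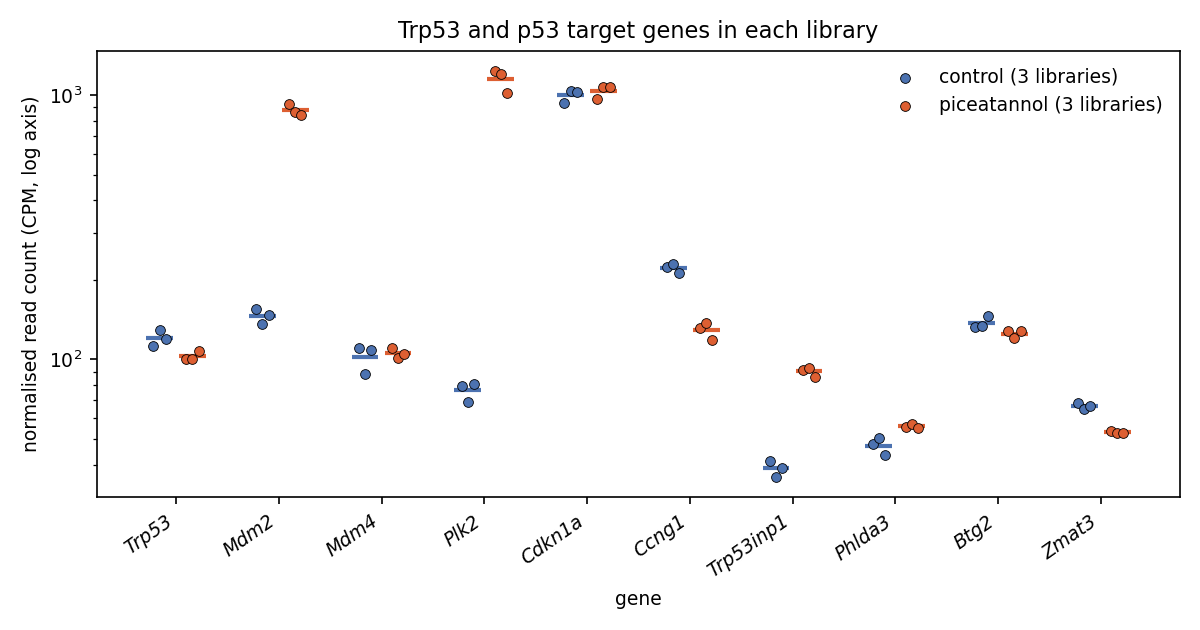
Normalised read count (CPM, log axis) of Trp53 and 9 p53 target genes, with 1 point per library (3 control in blue, 3 piceatannol in orange) and a bar at each group mean. Mdm2 and Plk2 stand several-fold apart between the groups, Cdkn1a lies near 1000 CPM in both (means 999 and 1037), and the Mdm4 points overlap.

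Trp53 itself (chromosome 11, 69580359 to 69591873, plus strand) was lower with piceatannol. Its normalised read counts (CPM, the gene's count scaled to the library's TMM-adjusted total) were 112, 129 and 120 in the control libraries and 101, 101 and 108 in the piceatannol libraries. The groups did not overlap, but the lowest control and the highest piceatannol library lay close together. The log2 fold change was -0.22 ± 0.06 (SE; adjusted p = 0.00323, edgeR). Wrap53, whose first exons are known to regulate Trp53 as an antisense transcript, lies 103 bases from the Trp53 start in GENCODE M21 and shares no exon base with it there. Wrap53 had 15.6 ± 1.52 CPM with vehicle and 16.9 ± 1.72 CPM in piceatannol libraries (SD, n = 3 each) and did not pass (log2 fold change 0.13, adjusted p = 0.251, edgeR). The processed copy Trp53-ps had 1 count in 1 library and 0 in the others. The genes whose pattern over the 6 libraries was nearest to that of Trp53 were Edf1, Wdr4 and Ahsa1, with a root mean square difference of centred log2 CPM of 0.0195, 0.0222 and 0.0236 among 10613 genes compared, a description in which the group difference is shared.

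Of the paralogous inhibitors of p53, Mdm2 rose and Mdm4 did not pass the test. Mdm2 (chromosome 10, 117688875 to 117710758, minus strand) encodes the ubiquitin ligase that targets p53 for degradation. It had 155, 137 and 148 CPM with vehicle and 925, 861 and 843 CPM in piceatannol libraries. Each treated library lay far above each control, with a log2 fold change of 2.58 ± 0.07 (SE) and an adjusted p = 1.55e-17 in edgeR, and 553 of the 15380 tested genes had a larger rise. Mdm4 (chromosome 1, 132959484 to 133030561, minus strand), which lacks strong ligase activity of its own and blocks the activation domain of p53, had 111, 87.9 and 109 CPM with vehicle and 111, 102 and 105 CPM in piceatannol libraries. The groups overlapped, and control replicate 2 was the lowest of the 6. The log2 fold change of Mdm4 was 0.05, with a 95% interval from -0.12 to 0.21 and adjusted p = 0.6 (edgeR), and without control replicate 2 it was -0.057.

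Per length, Mdm2 stood above Mdm4 in every library, and further above it with piceatannol. The ratio of Mdm2 to Mdm4 in the authors' FPKM (fragments scaled by gene length and library size) was 4.08, 4.53 and 3.94 in control and 24.3, 24.7 and 23.4 in piceatannol libraries. This is a difference of 2.53 on the log2 scale, or 5.77-fold, with no overlap between the groups. The two-sided exact permutation test gave p = 0.1, the smallest that 3 against 3 libraries allow. Mdm2 has 2 promoters, of which p53 is known to use the inner, and counts per gene do not tell their transcripts apart.

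Plk2 (chromosome 13, 110395046 to 110400844, plus strand) encodes a polo-like kinase that acts in centriole duplication and in checkpoint signalling after stress. Its normalised read counts were 79.4, 69.2 and 80.5 CPM with vehicle and 1234, 1199 and 1022 CPM in piceatannol libraries. The log2 fold change was 3.91 ± 0.09 (SE; adjusted p = 7.34e-18, edgeR), and 185 of the 15380 tested genes rose more. Plk3, a relative that is also a known p53 target, rose 3.53-fold, from 67.4 ± 1.79 to 238 ± 9.26 CPM (SD, n = 3 each), whereas Plk1, the mitotic member of the family, had a log2 fold change of -2.19.

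Of the genes of arrest and growth control, Cdkn1a did not pass the test, and Ccng1 and Btg2 were lower. Cdkn1a (chromosome 17, 29090976 to 29100727, plus strand) encodes p21, an inhibitor of cyclin-dependent kinases. It had 933, 1039 and 1027 CPM with vehicle and 968, 1072 and 1071 CPM in piceatannol libraries. The groups overlapped, with a log2 fold change of 0.05 (adjusted p = 0.483, edgeR) and a 95% interval from -0.09 to 0.20, or 0.94-fold to 1.15-fold. Cdkn1a was among the most abundant transcripts, with 75 of the 15380 tested genes at a higher mean level (log2 CPM, not per length). An unnamed gene on the opposite strand shares 273 bases, or 7.68%, of the annotated exon bases of Cdkn1a, and reads over those bases cannot be assigned without a stated strand setting.

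Ccng1 (chromosome 11, 40748552 to 40755311, minus strand) encodes cyclin G1, which recruits a phosphatase to Mdm2. Its normalised read counts were 224, 229 and 212 CPM with vehicle and 131, 138 and 119 CPM in piceatannol libraries. All treated libraries lay below all controls, and the log2 fold change was -0.78 ± 0.06 (SE; adjusted p = 7.26e-10, edgeR), the largest fall among the 10 genes. Btg2 (chromosome 1, 134075170 to 134079120, minus strand), an antiproliferative gene that promotes messenger RNA deadenylation, had 133, 134 and 146 CPM with vehicle and 128, 120 and 128 CPM in piceatannol libraries. The groups lay side by side without overlap, and the log2 fold change of -0.13 ± 0.06 (SE) barely passed (adjusted p = 0.049, edgeR). The Btg2 call was lost without control replicate 3 (adjusted p = 0.243, edgeR) and without piceatannol replicates 1 (0.0569), 2 (0.161) or 3 (0.0546), and under 2 further alternatives.

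Of the 3 remaining targets, Trp53inp1 and Phlda3 rose and Zmat3 fell. Trp53inp1 (chromosome 4, 11156431 to 11174379, plus strand) encodes a stress protein that promotes p53 phosphorylation and autophagy. It had 41.2, 35.9 and 38.9 CPM with vehicle and 91.5, 92.5 and 86.2 CPM in piceatannol libraries, and its log2 fold change was 1.22 ± 0.07 (SE) with an adjusted p = 1.33e-12 in edgeR. Phlda3 (chromosome 1, 135766119 to 135769136, plus strand), whose product competes with the kinase Akt for membrane lipids, had 47.7, 50.4 and 43.6 CPM with vehicle and 55.5, 57 and 55 CPM in piceatannol libraries. The groups did not overlap, and the log2 fold change was 0.24 ± 0.07 (SE; adjusted p = 0.00288, edgeR). Zmat3 (chromosome 3, 32334792 to 32366014, minus strand), which encodes a zinc finger protein that binds RNA, had 68.6, 65.1 and 66.9 CPM with vehicle and 53.7, 52.9 and 52.9 CPM in piceatannol libraries. Its libraries were the tightest of the 10 genes within the treated group, and the log2 fold change was -0.33 ± 0.06 (SE; adjusted p = 5.37e-05, edgeR).

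**Figure D2:**
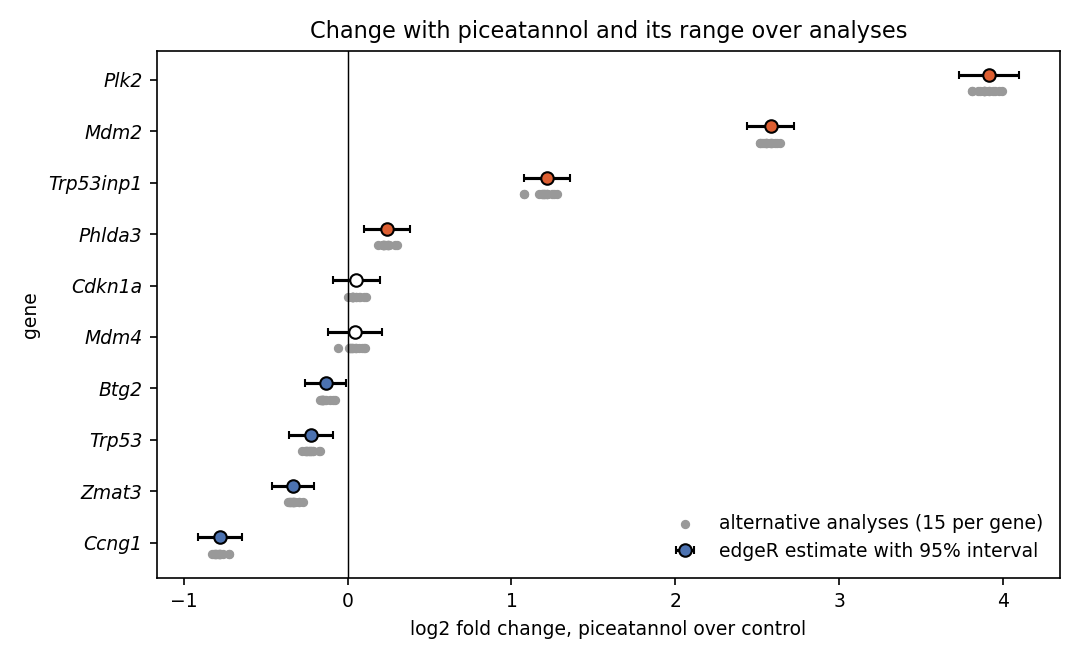
Log2 fold change of piceatannol over control for each gene (horizontal axis) with its 95% interval from edgeR, and in grey the values from 15 alternative analyses. Filled symbols passed the test (orange higher, blue lower) and open symbols did not; the intervals of Cdkn1a and Mdm4 include 0, and Btg2 lies closest to 0 among those that passed.

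Mdm4, Btg2 and Phlda3 lie on chromosome 1 with gaps of 1044608 bases between Mdm4 and Btg2 and 1686998 bases between Btg2 and Phlda3, and they had log2 fold changes of 0.05, -0.13 and 0.24, whose differences were not tested. Trp53 and Ccng1 share chromosome 11 but lie far apart, starting at 69580359 and 40748552. Both fell, as did 38.3% of all tested genes.

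Levels between genes were compared per length, in the authors' FPKM. The annotation behind those lengths is not stated, and the order of the genes depends on it. In control libraries Cdkn1a stood highest at 450 ± 26.7 FPKM (SD, n = 3), followed by Ccng1 (63.2 ± 2.65 FPKM) and Btg2 (50.1 ± 2.64 FPKM). Phlda3, Trp53 and Mdm2 came next with means of 30.3, 29.8 and 28.8 FPKM, and their libraries overlapped, so their order is not resolved. Plk2 stood at 17.0 ± 1.34 FPKM, below these, and Mdm4, Trp53inp1 and Zmat3 formed the lowest group with means of 6.93, 5.97 and 5.85 FPKM and overlapping libraries.

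With piceatannol Plk2 and Mdm2 stood next to the top. Cdkn1a remained highest at 460 ± 27.4 FPKM, followed by Plk2 (253 ± 25.2 FPKM) and Mdm2 (170 ± 8.09 FPKM), with no overlap between neighbours. Btg2 had 45.0 ± 1.36 FPKM, above Ccng1 (36.3 ± 2.87 FPKM) and Phlda3 (35.3 ± 0.798 FPKM), which overlapped. Trp53 (25.1 ± 0.924 FPKM), Trp53inp1 (13.7 ± 0.554 FPKM), Mdm4 (7.04 ± 0.297 FPKM) and Zmat3 (4.58 ± 0.0404 FPKM) followed without overlap.

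**Figure D3:**
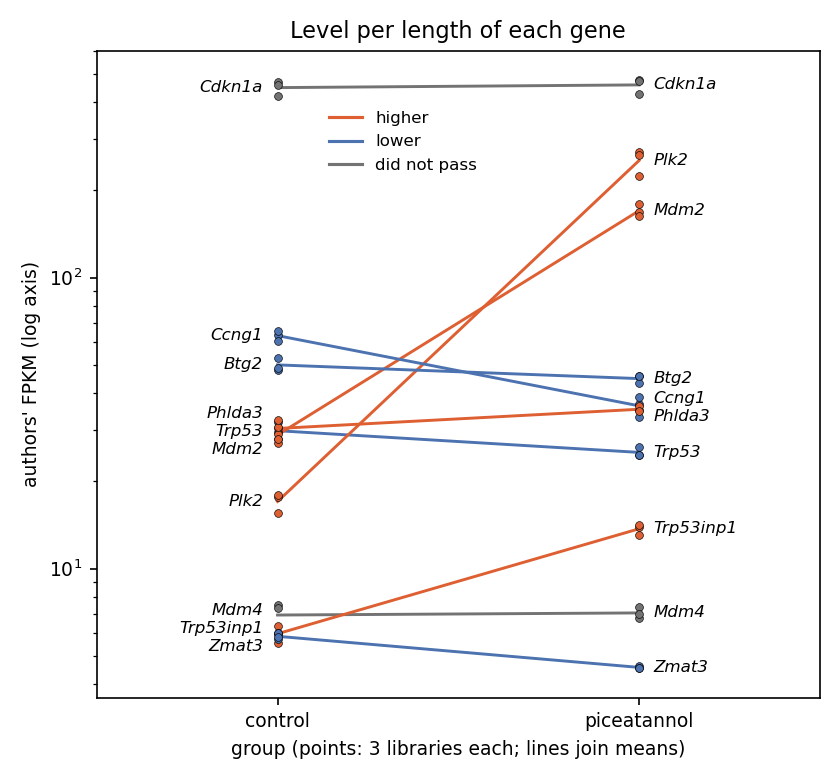
Authors' FPKM (log axis) of each gene in the control and piceatannol groups, with 1 point per library and lines that join the group means, coloured by the edgeR call. Plk2 rises from 17.0 to 253 FPKM and Mdm2 from 28.8 to 170 FPKM, past Ccng1 and Btg2, while Cdkn1a stays on top.

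The other known targets of p53 went both ways as well. Of 61 other known p53 target genes, all tested, 28 were higher, 26 lower and 7 did not pass, with a median log2 fold change of 0.07 (all tested genes 0.01). The shares of 45.9% higher and 42.6% lower stand beside 38.8% and 38.3% over all tested genes. At least 2-fold, 12 were higher (19.7%) and 8 lower (13.1%), near the 17.5% and 16.6% of all tested genes.

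Genes of cell death and survival went 8 higher and 8 lower of 18 (44.4% each, beside 38.8% and 38.3% over all tested genes). Bbc3, the gene of the BH3-only protein Puma, rose 3.08-fold from 27.9 ± 1.44 to 85.9 ± 3.18 CPM (SD, n = 3 each), and Bax, its pore-forming partner, rose 1.24-fold from 141 to 175 CPM. Ninj1, which encodes a protein of plasma membrane rupture, rose 4.92-fold from 134 ± 7.81 to 658 ± 4.75 CPM. The death receptor gene Fas fell 1.93-fold from 36.4 ± 2.85 to 18.8 ± 1.17 CPM, and the nuclease gene Aen fell 1.86-fold. Each of these 5 passed with an adjusted p of 2e-04 (Bax) or less in edgeR.

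Genes of arrest and feedback went 8 higher and 7 lower of 17 (47.1% and 41.2%, beside 38.8% and 38.3% over all tested genes). Their log2 fold changes ran from -4.58 to 3.28. Gadd45a, a stress sensor of the growth arrest family, rose 9.71-fold from 46.3 ± 2.81 to 449 ± 20.3 CPM (SD, n = 3 each). Ppm1d, the phosphatase gene Wip1 that closes the p53 response, rose 1.35-fold. Ccnd1, the cyclin D1 gene, fell 23.9-fold from 400 ± 12.2 to 16.7 ± 2.4 CPM. Cyclin D1 promotes the cell cycle, so this is not the fall of an arrest gene. Trp53i11 fell 14.7-fold from 401 ± 29.2 to 27.3 ± 4.92 CPM. Gtse1 and Rps27l were the 2 genes of the wider set whose window held a p53 site by the same search (49 genes had a window). Both were lower, Gtse1 2.86-fold and Rps27l 1.87-fold, as were 38.3% of all tested genes. They are named here after their values were seen.

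Repair and nucleotide genes went 2 higher and 4 lower of 8 (25% and 50%, beside 38.8% and 38.3% over all tested genes). The excision repair genes Ercc5 and Xpc rose 1.98-fold and 1.31-fold, and the translesion polymerase gene Polh fell 1.38-fold. Metabolic and stress genes went 10 higher and 7 lower of 18 (55.6% and 38.9%, beside the same shares). Gdf15, a stress cytokine that is also raised by the integrated stress response, rose 12.9-fold from 28.8 ± 1.56 to 373 ± 5.53 CPM (SD, n = 3 each), and the epoxide hydrolase gene Ephx1 rose 4.30-fold. Sesn1, a sestrin gene of the antioxidant defence, rose 1.24-fold. The glutathione peroxidase gene Gpx1 fell 2.36-fold.

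Regulators of p53 went in both directions. Of 39 listed, 35 were tested, and 12 were higher and 12 lower (34.3% each, beside 38.8% and 38.3% over all tested genes), with a median log2 fold change of 0.01. Of the kinases that act on p53 or Mdm2, Hipk2 (2.16-fold) and Atr (1.69-fold) rose, while the checkpoint kinase genes Chek1 and Chek2 fell 1.72-fold and 1.73-fold. Among ubiquitin and acetylation factors, the deacetylase gene Sirt1 rose 2.33-fold and Rbbp6, an Mdm2 partner, rose 1.95-fold, and Hdac1 fell 2.15-fold. Rpl5, whose protein can bind Mdm2, fell 1.60-fold, a value left uncertain by the many processed copies of such genes in the genome. Cdkn2a encodes the Mdm2 inhibitor Arf and also an inhibitor of cyclin-dependent kinases, which counts per gene do not tell apart. It was near the limit of detection at 1.16 ± 0.109 and 1.13 ± 0.209 CPM and did not pass (adjusted p = 0.912, edgeR).

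The ASPP family, which binds p53 and alters its choice of targets, was split. Ppp1r13l, the inhibitory member iASPP, rose 3.14-fold from 13.5 ± 0.118 to 42.4 ± 2.14 CPM and Trp53bp2, the activating member ASPP2, rose 1.71-fold (SD, n = 3 each). Ppp1r13b, the activating member ASPP1, fell 1.57-fold, and the damage response adaptor gene Trp53bp1 fell 1.34-fold. The p53 relatives Trp63 and Trp73 did not pass the filter on low counts.

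Genes that p21 and the DREAM repressor complex are known to lower were lower in 14 of 16 cases (87.5%, beside 38.3% of all tested genes) and higher in 0. Each of the 14 fell at least 2-fold (87.5%, beside 16.6% of all tested genes), and the median log2 fold change was -2.16. Cenpf, a kinetochore gene, fell 8.93-fold from 34.1 ± 1.82 to 3.73 ± 1.71 CPM, and Ccna2, the cyclin A2 gene, fell 8.72-fold from 69.0 ± 5.94 to 7.78 ± 2.42 CPM (SD, n = 3 each). Piceatannol replicate 2 was the lowest library for each of the 14 genes, with 4.99 CPM of Ccna2 beside 9.26 and 9.09 CPM in the other treated libraries. Without it the count was again 14, each at least 2-fold lower, and the median -1.98. Cks2 and the DREAM subunit gene Lin9 did not pass. The p21 gene itself, Cdkn1a, had a log2 fold change of 0.05 in the same libraries and did not pass. Most genes of this list are general genes of cell division, and the list was chosen with earlier results of these data known. Its share is therefore not particular to the p53 pathway. Whether p21 or DREAM had a part in these falls was not tested.

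**Figure D4:**
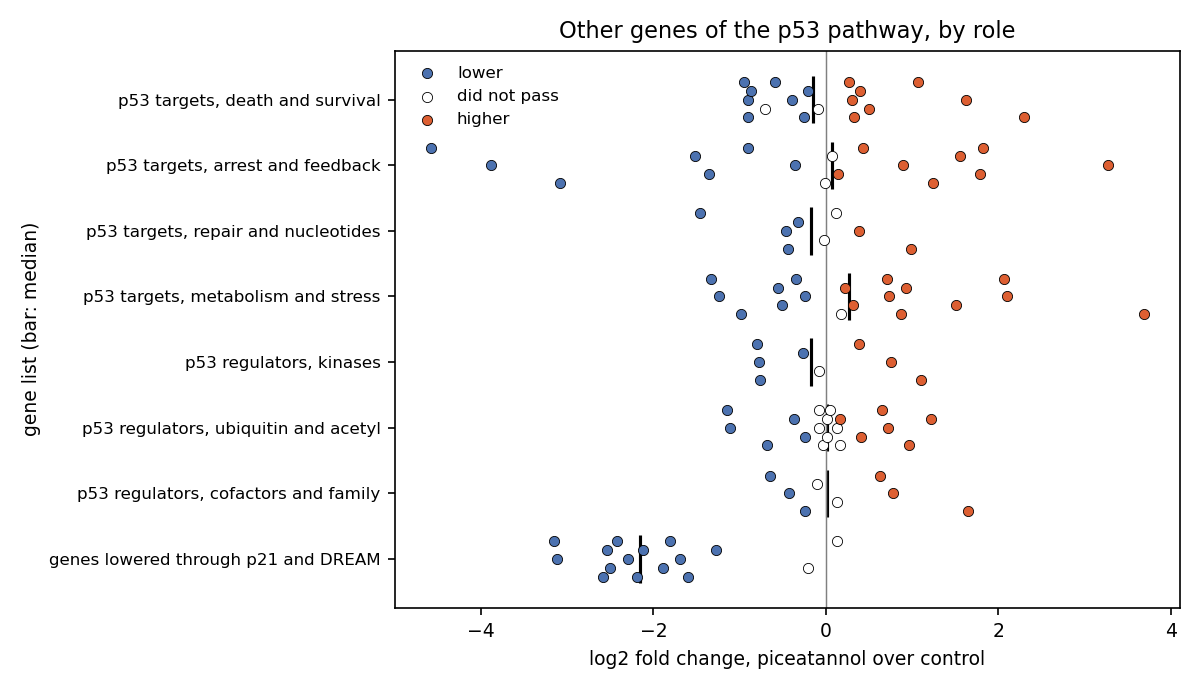
Log2 fold change of piceatannol over control (horizontal axis) for tested genes of 8 lists of the p53 pathway, 1 point per gene (orange higher, blue lower, open did not pass), with a bar at each list's median. The target and regulator lists spread to both sides of 0, and the genes known to be lowered through p21 and DREAM lie at a median of -2.16.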

How the data were processed

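Per the labels' protocols, an Illumina TruSeq RNA kit was used on 1 µg of total RNA for each library. For the 6 libraries the authors deposited whole-number read counts and FPKM values by gene symbol. The submitters' processing notes name bcl2fastq, STAR, featureCounts and DESeq2 without versions, and the builds mm10 and GRCm38. The sources used here give neither annotation nor strand setting. Scaling of the deposited FPKM between libraries matched DESeq2's size factors (1.126 against 1.126 in control replicate 1, over 3721 genes).

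Counts were filtered with filterByExpr (minimum count 10), scaled with TMM (factors 0.985 to 1.016) and tested with edgeR 4.0.16 (quasi-likelihood, robust, two-sided, no covariate, Benjamini-Hochberg over 15380 genes, threshold 0.05). Standard errors are the log2 fold change divided by the root of F. Alternatives were RLE factors, library totals, no filter, a CPM of at least 5 in 3 libraries, DESeq2 1.42.0, limma 3.58.1 on log2(FPKM + 1) with a mean FPKM of at least 0.1 or no filter and on log2(FPKM + 0.1), the replicate number as a block, and leaving out each library. The members and lists were chosen with earlier results of these data known. Of each list the 2 largest called rises and falls were named (mean log2 CPM of at least 2, no overlap), plus Wrap53, Ppm1d, Bax, Bbc3, Fas, Sesn1, Gadd45a, Gdf15 and Cdkn2a. Of the genes so chosen, 2 are not reported. Of the listed symbols 2 were absent from the table, Cop1 (present under its older symbol Rfwd2) and Trp53rk. Gene positions are from GENCODE M21 (GRCm38), matched by symbol for 48108 of 52459 symbols and all 10 members.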

Additional observations from a re-analysis of the deposited data

How the results depend on the processing

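Over 15 alternatives the members called higher stayed at 4 and those called lower at 3 to 4. The other p53 targets stayed at 26 to 28 higher and 24 to 26 lower, and the regulators at 11 to 14 higher and 9 to 12 lower. Of the genes known to be lowered through p21 and DREAM, 14 were lower under each. Trp53, Mdm2, Plk2, Ccng1, Trp53inp1, Phlda3 and Zmat3 kept their direction and side of the threshold under each of the 15, and Cdkn1a did not pass under any. The sign of Mdm4 turned without control replicate 2 (log2 fold change -0.057, adjusted p = 0.429, edgeR; -0.057 to 0.10 over the libraries left out in turn). Btg2 lost its call under 6 of 15, at a log2 fold change of -0.08 (adjusted p = 0.234, edgeR) with the stricter filter and -0.15 (adjusted p = 0.0607, limma) on log2(FPKM + 1) with no filter, besides leaving out 4 of the libraries; the cause was not tested. Leaving out each library gave between 11487 and 11880 genes called over the transcriptome, beside 11846 with all 6, and 8802 of 10531 tested with the stricter filter. The Mdm2 to Mdm4 difference was 2.49 to 2.59 on the log2 scale without 1 library. With CPM it was 2.53. Library scale and gene length cancel in this difference, so the CPM value had to match and is no separate check.

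The replicate numbers of the 2 groups are not stated to mark a shared animal or day. Deviations of same-numbered libraries correlated at 0.037, 0.070 and 0.065, each low but the highest for its library. The deviations are taken from the mean of only 3 libraries per group. The correlations are therefore not independent and cannot show whether the libraries were paired. With the replicate number as a block 12012 genes were called, beside 11846 without it, and the members stayed at 4 higher and 4 lower. The median of the genes known to be lowered through p21 and DREAM without piceatannol replicate 2 (-1.98, beside -2.16) was added after seeing the data. The lowest count of any member in any library was 1577.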

Other observations

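Further genes of this pathway were looked at after the results above were known, and are given as values. Ccng2, the cyclin G2 gene and the paralogue of Ccng1, rose 3.61-fold with piceatannol, from 39.8 ± 1.99 to 144 ± 13 CPM (SD, n = 3 each; adjusted p = 4.67e-15, edgeR), while Ccng1 fell 1.72-fold. Trp53cor1, the long noncoding RNA gene known as lincRNA-p21 and a neighbour of Cdkn1a, had 3.86 ± 0.0863 CPM with vehicle and 4.65 ± 0.547 CPM in piceatannol libraries and did not pass (log2 fold change 0.27, adjusted p = 0.0978, edgeR). Pvt1, a long noncoding RNA gene with a known p53 site, fell 1.29-fold from 11.5 ± 0.581 to 8.87 ± 0.87 CPM (adjusted p = 0.00388, edgeR). The kinase genes Trp53rka and Trp53rkb, whose products can phosphorylate p53, rose 1.34-fold and 1.70-fold, and as near copies their split of reads is uncertain.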
